A study of Capra hircus with 10 samples.

Results

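EHMT1 and WHSC1 encode histone lysine methyltransferases, and 8 of the 1327 circRNAs counted in differentiating goat intramuscular fat cells had one of these 2 genes as host, 5 from EHMT1 and 3 from WHSC1. All circRNAs with either host gene name were taken, and repeated entries were dropped. The 2 genes were chosen because 1 circRNA of each, circ_0005888 of EHMT1 and circ_0003129 of WHSC1, had fewer back-splice junction reads in adipocytes than in preadipocytes in the same libraries. The junction reads of these 2 circRNAs, and every share computed from them, are therefore given as a description with no test. Their 6 other circRNAs came along with the host gene.

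Circular RNAs arise when a splice donor is joined to an acceptor upstream of it, so that the enclosed exons form a closed ring, and only reads across that back-splice junction identify the ring. EHMT1, also called GLP, works in a complex with EHMT2 (G9a) that places methyl groups on lysine 9 of histone H3, a mark of silenced chromatin, and in brown fat cells EHMT1 is known as a partner of PRDM16. WHSC1, also called NSD2, methylates lysine 36 of histone H3, a mark of transcribed chromatin.

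The study asked which circRNAs change as intramuscular preadipocytes become adipocytes. Total RNA without its ribosomal part was sequenced in 5 libraries of preadipocytes (IMPA, day 0) and 5 libraries of adipocytes (IMA, day 3 of adipogenic induction in a medium with oleic acid at 50 µmol/L and fetal bovine serum). All were wild type, and the cells were isolated from intramuscular fat of the longissimus dorsi of 3 male Jianzhou goats aged 7 days. Since which goat gave each library is not stated and there are more libraries per group than goats, the p-values measure the spread between libraries, which may be partly technical.

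Over all circRNAs a library had 11421 to 15553 junction reads in IMPA and 9622 to 12499 in IMA. Non-junction reads, which cross the same splice sites without the back-splice and come mainly from linear transcripts, were counted by the authors for each circRNA that had a junction read in the library. At the 690 circRNAs for which junction and non-junction reads were given in all 10 libraries they summed to 177795 to 244354 in IMPA against 128138 to 173047 in IMA. Normalized CPM below means reads per 1000000 of the library total for that kind of read, with TMM factors. No junction count of 1 occurs in the table, so a 0 may also stand for 1 read. The marker lists held 47 gene symbols, with synonyms, of adipocytes, preadipocytes and fibroblasts, muscle, endothelium and immune cells. They could not check the cell labels, as only 1 gene hosted a circRNA, the muscle stem cell gene PAX7. Its circRNA had 11 to 19 junction reads in IMPA against 8 to 19 in IMA. Among the circRNAs that the study reports as higher in IMA are those of the muscle genes MYBPC1, MYPN and FHOD3, which are not in the lists. As they were taken from the study's changed circRNAs, this is a description. A part of muscle cells in the differences between the groups was not tested. PLIN2, which codes for a coat protein of lipid droplets, is not in the lists and was chosen after its values were seen. The non-junction reads at its circRNA circ_0004263 were at 2920 to 5515 normalized CPM in the IMPA libraries and at 11286 to 17108 in the IMA libraries, with no overlap; as it was picked on these values, this is a description with no test and no check of the labels. In whole cultures, fewer cells that carry a circRNA and less of it per cell cannot be told apart.

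The 5 EHMT1 circRNAs lie on the minus strand of chromosome 11 and all end at position 105670084. On this strand that position is the acceptor of the back-splice. The sources used here list versioned reference sequences for the chromosomes but do not name the genome build. Each of the 5 circRNAs uses a donor of its own. The donor of circ_0005888 is the nearest, at 105666855, so that its ring spans 3230 bases of the gene; the donors of circ_0005884, circ_0005882, circ_0005880 and circ_0005878 are at 105658936, 105651964, 105644598 and 105629701, and the span of the last is 40384 bases. Of 1172 acceptors used by the circRNAs of the series, 120 (10.2%) were shared by 2 or more circRNAs and 2 by 5, the highest number, one of them this EHMT1 acceptor. Counting exonic circRNAs alone, EHMT1 was 1 of 12 host genes with 5 or more, of 925 host genes.

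The annotation listed 3 exons of 189, 137 and 181 nt in circ_0005888, a spliced length of 507 nt. The 181-nt exon, which carries the shared acceptor, was listed in 4 of the 5 EHMT1 circRNAs, and the 137-nt exon in circ_0005888 and circ_0005880. The listing of circ_0005882 held a single exon of 146 nt and none at the acceptor, so its spliced length is incomplete. Exons at the start or end were missing in 278 of 1274 exonic circRNAs (21.8%).

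The 3 WHSC1 circRNAs lie on the plus strand of chromosome 6. circ_0003127 (115901670 to 115904271) and circ_0003129 (115901670 to 115924848) share the acceptor, and circ_0003129 and circ_0003133 (115919302 to 115924848) share the donor. circ_0003129 thus spans both others. Its listed exons, of 82 and 125 nt, lie at the donor side, and no exon was listed at the shared acceptor, neither for circ_0003129 nor for circ_0003127. circ_0003133 was listed with exons of 145, 119 and 125 nt, a spliced length of 389 nt.

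**Figure D1:**
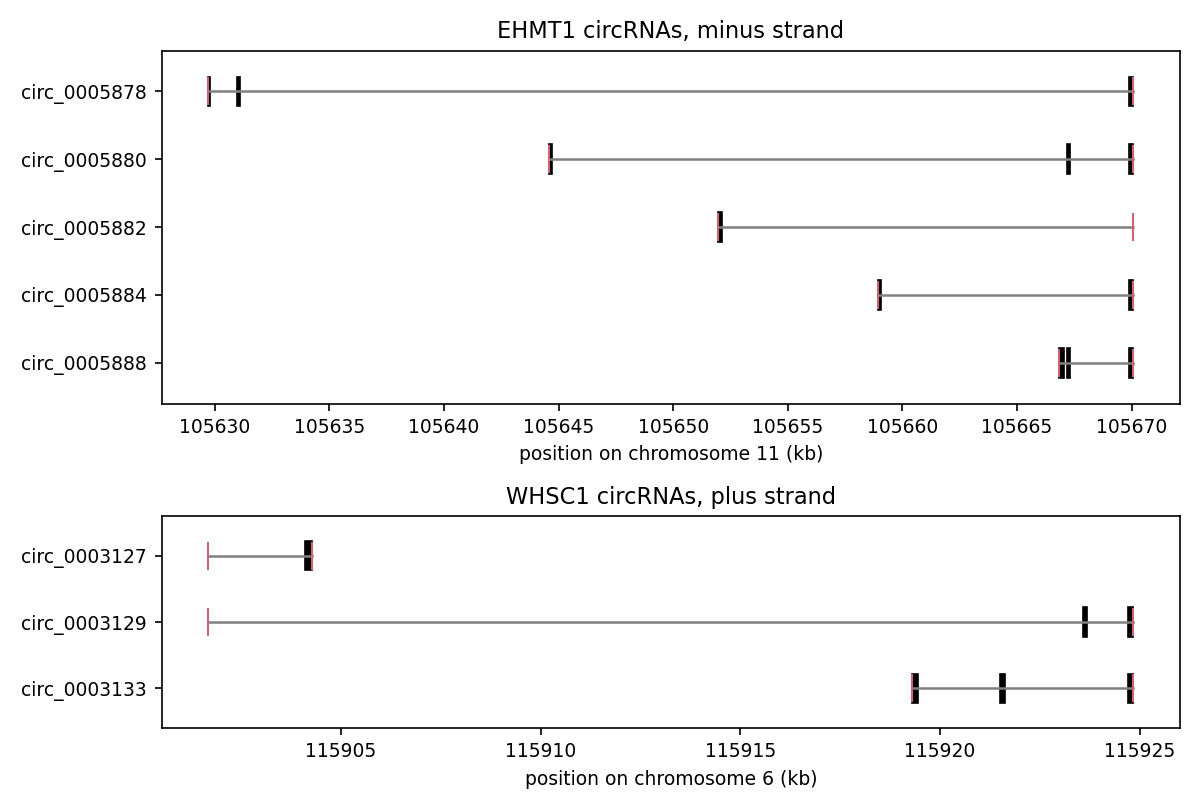
Extent of the 5 EHMT1 circRNAs on chromosome 11 and the 3 WHSC1 circRNAs on chromosome 6 (position in kb, build not named in the sources used here). Black boxes are the listed exons, grey lines the span between the back-splice sites, and red ticks the back-splice sites; the 5 EHMT1 circRNAs share the site at 105670084, and no exon is listed at that site for circ_0005882.

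circ_0005888 had 38, 31, 44, 40 and 57 junction reads in IMPA1 to IMPA5, against 21, 18, 19, 14 and 18 in IMA1 to IMA5. Every IMA library lay below every IMPA library, with IMPA5 the highest and IMA4 the lowest. After normalization the mean was 3164 ± 439 CPM in IMPA against 1636 ± 178 CPM in IMA (SD, n = 5 each), a ratio of 1.93, and the groups were again apart, at 2685 to 3754 against 1401 to 1853 CPM. The log2 fold change (IMA minus IMPA) of the edgeR fit, which draws low counts toward 0, was -0.89 ± 0.17 (SE). For every log2 fold change here, SE means its size divided by the square root of the F value of edgeR's test. This is an approximation that can be too small at low counts.

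circ_0003129 had 32, 27, 34, 34 and 33 junction reads in IMPA1 to IMPA5, against 16, 13, 13, 15 and 15 in IMA1 to IMA5. The counts within each group were close to each other and the groups did not overlap. The mean was 2442 ± 254 normalized CPM in IMPA against 1321 ± 190 in IMA (SD, n = 5 each), a ratio of 1.85, with a log2 fold change of -0.81 ± 0.18 (SE). Of 1294 circRNAs tested, 30 (2.32%) had every IMA library below every IMPA library in normalized CPM, and 6 (0.464%) were lower in IMA at an edgeR adjusted p under 0.01. Both circRNAs were chosen on this contrast, so nothing is read from their place among these.

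The 6 other circRNAs of the 2 genes were lower in count. circ_0005882 of EHMT1 had 21, 15, 24, 14 and 21 junction reads in IMPA1 to IMPA5, against 4, 8, 8, 9 and 13 in IMA1 to IMA5; the counts did not overlap, but in normalized CPM they did, at 1168 to 1783 in IMPA against 353 to 1245 in IMA. Its log2 fold change was -0.78 ± 0.25 (SE), edgeR adjusted p = 0.112 (Benjamini-Hochberg over 1294 circRNAs), so it did not pass 0.01. The counts of circ_0005878 were 9 to 19 in IMPA against 5 to 15 in IMA, those of circ_0005880 were 5 to 11 and 4 to 8, and those of circ_0005884 were 6 to 10 and 0 to 10, and each of these pairs of ranges overlapped. Their log2 fold changes were -0.43, -0.16 and -0.58, with edgeR adjusted p = 0.509, 0.856 and 0.510. Single libraries moved these values: circ_0005878 was at -0.29 without IMPA4 and -0.65 without IMA1, circ_0005880 at -0.03 without IMA3 and -0.30 without IMA4, and circ_0005884 at -0.34 without IMA1 and -0.99 without IMA3.

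Among the WHSC1 circRNAs, circ_0003127 had 2 to 12 reads in IMPA against 0 to 10 in IMA, with a log2 fold change of -0.23 ± 0.37 (SE; edgeR adjusted p = 0.811), which was -0.01 without IMA4 and -0.47 without IMA3. circ_0003133, at 0 to 9 reads in both groups, was the only circRNA of the 8 with a positive log2 fold change, 0.23 ± 0.48 (SE; edgeR adjusted p = 0.863), and its sign turned without IMPA5 (-0.01) or without IMA5 (-0.04); with the summed non-junction reads as library size circ_0005880 was also above 0 (0.03). Thus 0 of the 6 circRNAs that did not lead to the choice of the genes passed 0.01 by edgeR; 1 of them, circ_0005882, had an unadjusted p under 0.05 with edgeR and with DESeq2's Wald test. DESeq2's own filter on low counts left an adjusted p to 115 of the 1294 circRNAs and to 0 of these 6; adjusted over all 1294, 0 of the 6 passed 0.01. DESeq2 called 13 (1%) with its filter and 10 (0.773%) over all. edgeR called 12 (0.927%) in either direction, and 172 (13.3%) had an unadjusted p under 0.05, and counts of 0 and 1 among 6 cannot be told from these shares. At 0 to 24 reads per library, small changes were not detectable. DESeq2, which did not draw its fold changes toward 0, gave larger SEs, 0.53 for circ_0003127 and 1.17 for circ_0003133. The contrast and libraries are those on which the genes were chosen, so these p-values are no independent test of the genes.

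In IMPA the order of the mean levels was circ_0005888, circ_0003129, circ_0005882 (1433 normalized CPM), circ_0005878 (1108), circ_0005880 (596), circ_0005884 (594), circ_0003127 (552) and circ_0003133 (342). A junction is 1 position in each ring, so these levels carry no length term. The ranges of all neighbours in this order overlapped, other than those of circ_0003129 and circ_0005882. In IMA circ_0005888 and circ_0003129 again came first, and the 6 others, with means from 334 to 780 CPM, had ranges that all overlapped. In every one of the 10 libraries both had more junction reads than each of the 6 others, and circ_0005888 had more than circ_0003129 in 9 of 10, the exception being IMA4. Among the 1327 circRNAs of the series, circ_0005888 ranked 35 in IMPA against 98 in IMA by the mean of the authors' CPM values, and circ_0003129 ranked 54 and 146.

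**Figure D2:**
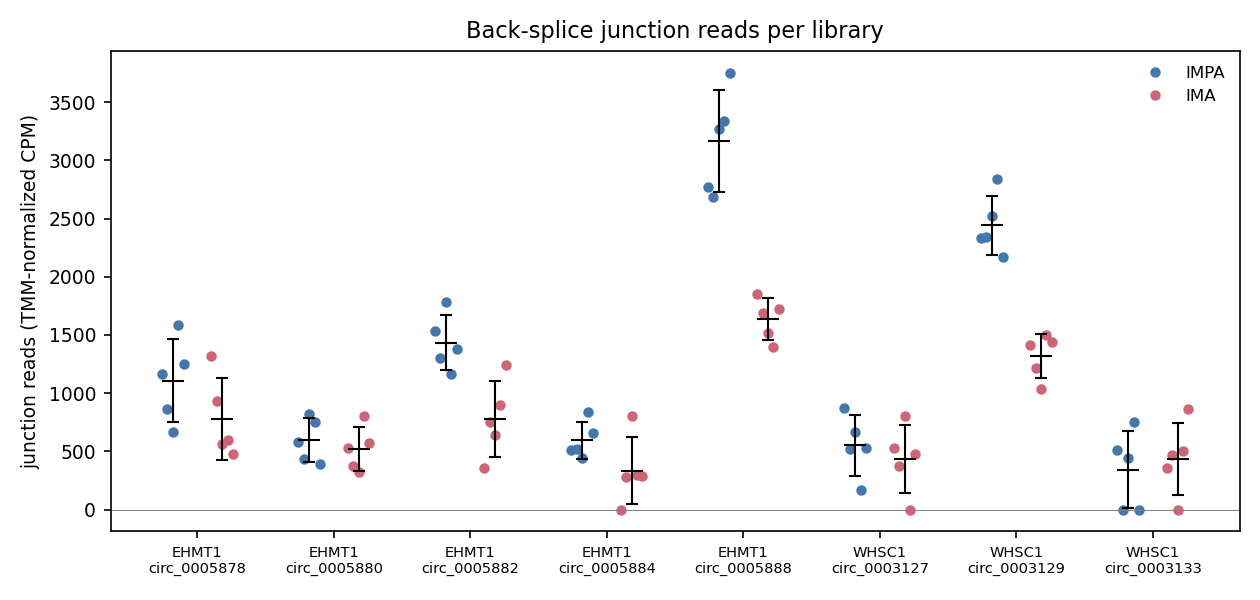
Back-splice junction reads of the 8 circRNAs in TMM-normalized CPM, 1 point per library (blue IMPA, red IMA, 5 each); black bars are the mean ± SD. The groups are apart for circ_0005888 and circ_0003129, on which the genes were chosen, and overlap for the 6 others.

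All junction reads of EHMT1 together were 67 to 113 in IMPA against 40 to 48 in IMA, or 0.587% to 0.749% and 0.384% to 0.440% of the library. Without circ_0005888 the other 4 circRNAs summed to 52, 36, 50, 52 and 56 reads in IMPA1 to IMPA5 and to 25, 25, 29, 26 and 27 in IMA1 to IMA5, which is 3118 to 4340 and 2206 to 2601 normalized CPM. The 2 groups did not overlap in this sum, while each of the 4 alone overlapped in normalized CPM. There were 240 host genes with 2 or more circRNAs (234 by exonic circRNAs alone). In the sum without their most abundant circRNA, 7 of the 240 (2.92%), EHMT1 among them, had every IMA library below every IMPA library. As a circRNA of EHMT1 led to its choice on this contrast, nothing is read from that place. For WHSC1 the other 2 circRNAs summed to 6 to 19 reads in IMPA against 5 to 14 in IMA, or 893 ± 376 and 873 ± 302 normalized CPM (SD, n = 5 each), and the ranges overlapped.

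The share of circ_0005888 in the junction reads of EHMT1 was 42.2%, 46.3%, 46.8%, 43.5% and 50.4% in IMPA1 to IMPA5, against 45.7%, 41.9%, 39.6%, 35.0% and 40.0% in IMA1 to IMA5, and the groups overlapped. The share of circ_0003129 in those of WHSC1 was 62.7% to 81.8% in IMPA against 51.7% to 75.0% in IMA, with means of 74.0% and 60.8%, also with overlap. The difference of -13.2 percentage points became -5.57 when circ_0003133, with a mean count under 5, was left out of the sum. Both genes therefore gave most of their reads, or the largest share of them, to the same circRNA in both groups.

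Non-junction reads were not used in the choice of the genes, but they come from the same libraries and contrast, so the p-values given for them are no independent test of these genes. At circ_0005888 they were 380, 295, 386, 327 and 437 in IMPA1 to IMPA5, against 200, 158, 216, 194 and 180 in IMA1 to IMA5. In normalized CPM this was 1728 ± 113 in IMPA against 1347 ± 146 in IMA (SD, n = 5 each), and the highest IMA library, IMA4 at 1559, lay below the lowest IMPA library, IMPA2 at 1611. The log2 fold change was -0.36 ± 0.08 (SE), edgeR adjusted p = 0.000395 (Benjamini-Hochberg over 690 circRNAs).

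The non-junction reads of the other 3 EHMT1 circRNAs with values in every library were lower in IMA as well. The mean fell from 947 to 755 CPM at circ_0005878, from 1061 to 837 at circ_0005880 and from 1139 to 903 at circ_0005882, with log2 fold changes of -0.33, -0.34 and -0.34 and edgeR adjusted p = 0.00758, 0.00404 and 0.00723. These 4 circRNAs share the acceptor, so the same linear reads there may be counted for each, and they are not 4 separate measurements. At circ_0005884, with no value in IMA1 and so not tested, they were at 1118 to 1345 normalized CPM in IMPA against 809 to 1161 in IMA, with overlap.

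At circ_0003129 of WHSC1 the non-junction reads were 104, 73, 122, 112 and 156 in IMPA1 to IMPA5, against 59, 64, 95, 57 and 58 in IMA1 to IMA5, or 532 ± 87.6 and 467 ± 55.4 normalized CPM (SD, n = 5 each). The ranges overlapped, and the log2 fold change of -0.19 ± 0.12 (SE) did not pass 0.01 (edgeR adjusted p = 0.239). It was -0.12 without IMPA5, and with the summed junction reads as library size it was -0.42 and passed (edgeR adjusted p = 0.00898). Whether EHMT1 and WHSC1 differed in the change of their non-junction reads was not tested. The other 2 WHSC1 circRNAs lacked values in 1 and in 3 libraries; where counted, their non-junction reads were at 737 to 932 normalized CPM in IMPA against 602 to 736 in IMA for circ_0003127, and at 730 to 824 and 555 to 636 for circ_0003133. These values lay apart, for circ_0003127 by about 1 CPM, and were not tested. Their means were 829 in IMPA against 652 in IMA for circ_0003127 and 767 against 590 for circ_0003133.

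By non-junction reads circ_0005884, circ_0003127 and circ_0003133 had lower means in IMA, but they lacked complete values and were not tested. Of the 5 circRNAs of the 2 genes with complete values, 4 passed 0.01 by edgeR as lower in IMA. All 4 are of EHMT1 and share an acceptor. circ_0003129 also had a lower mean in IMA but did not pass. Such calls were frequent in the series: of 690 tested, 150 (21.7%) passed 0.01, 80 of them higher and 70 (10.1%) lower, and 69 (10%) had every IMA library below every IMPA library, among them 3 of these 5. The median log2 fold change over the 690 was 0.00 and over the 5 it was -0.34. The calls of circ_0005878, circ_0005880 and circ_0005882 were near the threshold. circ_0005878 did not pass 0.01 without IMPA1, IMPA2, IMPA3, IMA2, IMA3 or IMA5 (edgeR adjusted p = 0.0126 to 0.0334) nor with DESeq2's Wald test (adjusted p = 0.0109), circ_0005880 not without IMPA1, IMPA3, IMA2 or IMA4 (edgeR adjusted p = 0.0106 to 0.0189), and circ_0005882 not without any 1 of IMPA1 to IMPA3 and IMA1 to IMA4 (edgeR adjusted p = 0.0104 to 0.0346). For circ_0005888 the highest edgeR adjusted p without 1 library was 0.00282.

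The balance of junction and non-junction reads differed between the groups over the whole series. The circular share is the percentage of junction reads among junction and non-junction reads, with each junction read counted 2 times because it covers both splice sites. It was 8.80% to 9.82% in IMPA against 10.23% to 10.96% in IMA over the 690 circRNAs together, and the mean share was higher in IMA for 509 of them (73.8%), with a median difference of 1.68 percentage points. With the summed non-junction reads as library size the median log2 fold change of junction reads was 0.12, in place of -0.07, with 8 higher and 1 lower called in place of 6 and 6; relative to that median circ_0005888 was at -0.78 and circ_0003129 at -0.71, against -0.82 and -0.75 with TMM. With the junction reads as library size the median for non-junction reads was -0.23. This called 20 higher and 235 lower in place of 80 and 70, and the plain sum of non-junction reads called 48 and 106. Relative to the median of -0.23 circ_0005888 was at -0.36 and circ_0003129 at -0.18. A change of library size moves all circRNAs almost alike. The values relative to a median, for both kinds of read, were therefore nearly fixed in advance and test nothing. The study also lists a lower share of mapped reads for every IMA library than for any IMPA library. The part of RNA composition or of mapping in these differences was not tested.

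The circular share of circ_0005888 was 16.7%, 17.4%, 18.6%, 19.7% and 20.7% in IMPA1 to IMPA5, against 17.4%, 18.6%, 15.0%, 12.6% and 16.7% in IMA1 to IMA5. The groups overlapped, with means of 18.6% ± 1.64 and 16.0% ± 2.31 (SD, n = 5 each). That of circ_0003129 was 38.1%, 42.5%, 35.8%, 37.8% and 29.7% in IMPA1 to IMPA5, against 35.2%, 28.9%, 21.5%, 34.5% and 34.1% in IMA1 to IMA5, with means of 36.8% ± 4.65 and 30.8% ± 5.78 (SD, n = 5 each) and again with overlap. The mean share of circ_0005888 dropped by 2.56 percentage points and that of circ_0003129 dropped by 5.96, and 63 and 22 of the 690 circRNAs had a larger drop. Without IMA4 the difference for circ_0005888 was -1.70, and with each junction read counted 1 time it was -1.53; without IMA3 that for circ_0003129 was -3.63. As both shares follow from the junction reads that led to the choice, this is a description. In IMPA the mean share of circ_0003129 ranked 69 of 690 from the top and that of circ_0005888 ranked 203, where the median was 10.4%. In IMA they ranked 117 and 277, where the median was 12.8%.

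Of the EHMT1 circRNAs that did not lead to the choice, circ_0005878 had a mean circular share of 12.8% in IMPA against 13.7% in IMA, circ_0005880 of 6.52% and 8.78%, and circ_0005882 of 13.6% and 11.6%. None of these 3 differences could be told from the spread between libraries, with p = 0.770, 0.190 and 0.317 in exact permutation tests (two-sided, all assignments of 5 and 5 libraries, smallest possible p 0.00794, 3 tests, not adjusted). For circ_0005878 the sign of the difference depended on single libraries: it was -0.413 percentage points without IMPA3, -0.765 without IMA1 and -0.209 without IMA2, against 0.914 with all. That of circ_0005880 went from 2.26 to 1.12 without IMA4, and that of circ_0005882 from -1.95 to -0.447 without IMA1. The circRNAs without values in every library were not tested. Where counted, the mean share of circ_0005884 was 5.71% in IMPA against 6.35% in IMA. That of circ_0003127 was 7.63% and 11.2%, and that of circ_0003133 was 8.53% and 12.6%, all with overlap. Libraries with no junction read are left out of these means, which raises them.

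**Figure D3:**
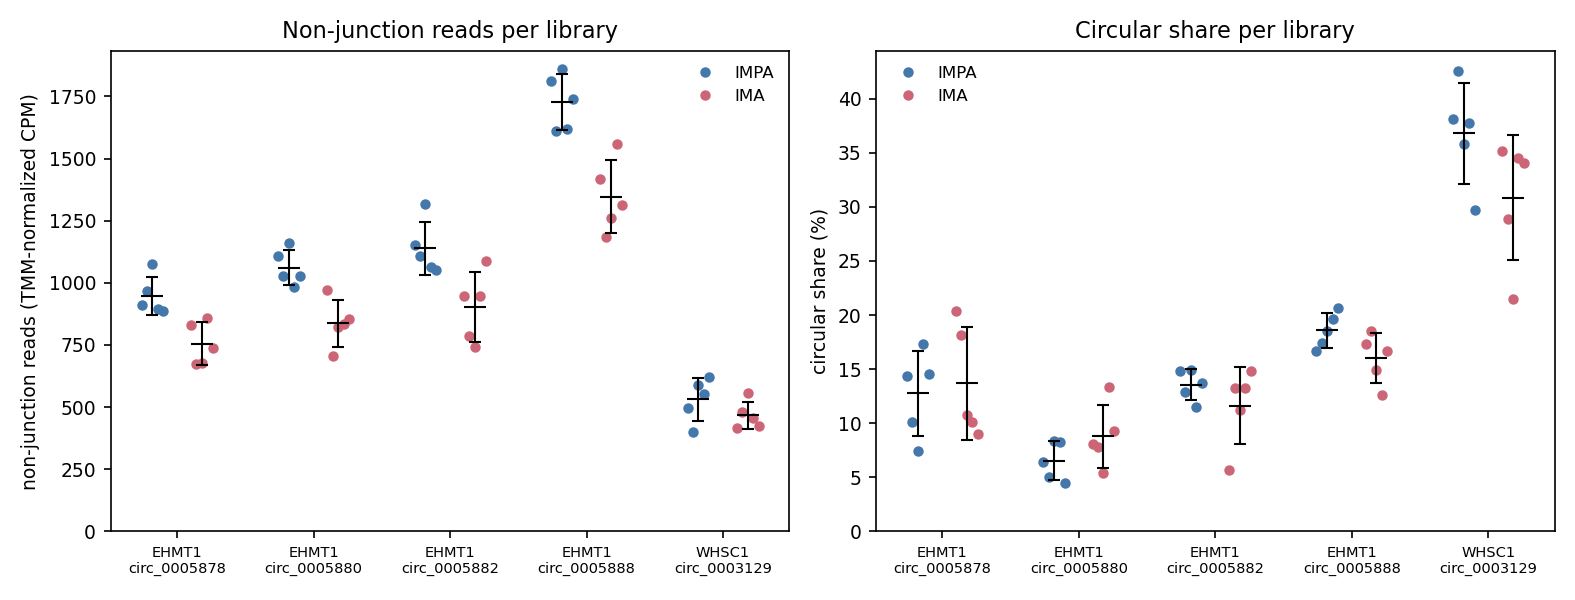
Non-junction reads in TMM-normalized CPM (left) and circular share in percent (right) of the 5 circRNAs with values in every library, 1 point per library (blue IMPA, red IMA, 5 each), with black bars for the mean ± SD. At circ_0005888 the non-junction reads of all IMA libraries, up to 1559 CPM, lie below those of IMPA, while the circular shares overlap for all 5.

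By Pearson's r over the 10 libraries in log2 normalized CPM, the circRNAs most like circ_0005888 among 322 of other host genes with a mean count of at least 10 were circ_0009231 of CEP112 (r = 0.931), circ_0010171 of PLXND1 (0.921) and circ_0003129 of WHSC1 itself (0.897). Those most like circ_0003129 were circ_0009534 of PAPD7 (r = 0.911), circ_0005888 (0.897) and circ_0010274 of CDYL (0.890). The points share libraries and the difference between the 2 groups enters each r: with the group means taken out, r between circ_0005888 and circ_0003129 was 0.0748, and between circ_0003129 and CDYL's circRNA it was 0.265. In the same way r was 0.805 for circ_0009534 with circ_0003129, and 0.635 for circ_0010171 and 0.450 for circ_0009231 with circ_0005888. As all were picked for a high r, which holds this part too, these values are a description with no test. The counts of circ_0009231 were 42 to 72 in IMPA against 25 to 32 in IMA, those of circ_0010171 were 18 to 43 and 9 to 12, and those of circ_0009534 were 120 to 155 and 86 to 100.

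A list of 42 further symbols of histone lysine methyltransferases held synonyms, NSD2 for WHSC1 among them. From it 6 genes hosted 13 circRNAs, namely KMT2C 4, ASH1L 3, KMT2E 2, EZH2 2, SMYD3 1 and WHSC1L1 1. By junction reads 0 of the 13 passed 0.01 in either direction with edgeR or with DESeq2 adjusted over all, as DESeq2's own filter left 0 of them with an adjusted p. With both tools 0 had an unadjusted p under 0.05, beside 0.927% called and 13.3% under 0.05 of all circRNAs tested with edgeR. Their log2 fold changes were -0.56 to 0.65 with a median of 0.07, beside -0.07 over all 1294 tested. The most abundant was circ_0001458 of ASH1L, which methylates lysine 36 of histone H3 as WHSC1 does, with 5 to 27 reads in IMPA against 12 to 19 in IMA (log2 fold change 0.35 ± 0.27, SE; edgeR adjusted p = 0.597). circ_0007929 of SMYD3 and circ_0002312 and circ_0002314 of KMT2C, which methylates lysine 4, followed, with log2 fold changes of 0.07, -0.22 and 0.35.

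By non-junction reads 6 of the 13 could be tested, and 0 passed 0.01 by edgeR or DESeq2; 1, circ_0007929 of SMYD3, had an unadjusted p under 0.05 by edgeR and 0 by DESeq2. Over all 690 these shares were 21.7% at 0.01 and 44.8% (309) at an unadjusted p under 0.05 with edgeR, and 19.4% and 40.3% with DESeq2. All 6 log2 fold changes were below 0, from -0.24 to -0.05, with a median of -0.16, beside 0.00 over all 690. Several of the 6 share the host gene KMT2C. The circRNA of WHSC1L1, the paralog of WHSC1 known as NSD3, had 4 to 8 junction reads in IMPA against 5 to 8 in IMA, and its non-junction reads had a log2 fold change of -0.18 ± 0.12 (SE; edgeR adjusted p = 0.252).

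Among 23 histone lysine demethylases, KDM4C, KDM5B, KDM5C and KDM6A hosted 5 circRNAs. By edgeR 0 of 5 passed 0.01 with either kind of read, and by DESeq2 also 0 (adjusted over all tested), beside edgeR's 0.927% and 21.7%; at an unadjusted p under 0.05 there were 0 by junction reads with both tools, and by non-junction reads 2 with edgeR and 1 with DESeq2, while over all tested edgeR had 13.3% by junction and 44.8% by non-junction reads. The median log2 fold changes were 0.08 by junction and 0.13 by non-junction reads, with 2 and 1 of the 5 below 0. circ_0004355 of KDM4C, an enzyme that removes methyl groups from lysine 9 and lysine 36 of histone H3, was the most abundant, with 57 to 94 junction reads in IMPA against 39 to 65 in IMA, or 5506 ± 909 and 4983 ± 826 normalized CPM (SD, n = 5 each). Its log2 fold change was -0.14 (edgeR adjusted p = 0.688), and its circular share was 63.6% and 63.3%. circ_0011860 of KDM6A, circ_0008309 of KDM5B and circ_0004356 of KDM4C had log2 fold changes of 0.08, 0.46 and -0.31.

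A broad list of partners and readers of methylated lysine 9 and lysine 36 held 28 symbols, with synonyms, and not every member binds these marks. Of its genes, ATRX hosted 3 circRNAs and CDYL and EED 1 each. circ_0010274 of CDYL, a chromodomain protein that binds methylated histone H3 and associates with EHMT1 and EHMT2, had 37 to 57 junction reads in IMPA against 20 to 26 in IMA, with no overlap. Its mean was 3444 ± 504 normalized CPM in IMPA against 2099 ± 231 in IMA (SD, n = 5 each), and its log2 fold change of -0.68 ± 0.16 (SE) had an edgeR adjusted p = 0.0158. It missed 0.01 there and passed with DESeq2's Wald test (adjusted p = 0.00948). DESeq2's filter left an adjusted p to this 1 of the 5, and to 115 of all 1294, of which 13 (1% of the 1294) were called. The call of circ_0010274 rests on that filter, since adjusted over all 1294 its p was 0.0630 and did not pass. Its non-junction reads had a log2 fold change of -0.17 ± 0.11 (SE; edgeR adjusted p = 0.255), and its circular share was 42.2% in IMPA against 38.4% in IMA. The 3 circRNAs of ATRX, circ_0011878, circ_0011884 and circ_0011872, had log2 fold changes of -0.17, -0.11 and 0.36 by junction reads. Over the 5 circRNAs the median was -0.17, with 0 passing 0.01 by edgeR and 1 at an unadjusted p under 0.05; by non-junction reads, 0 of 4 passed with either tool and 0 had an unadjusted p under 0.05. With so few circRNAs these counts cannot be told from the shares over all tested. By edgeR 0.927% passed 0.01 by junction reads and 21.7% by non-junction reads, where DESeq2 had 19.4%. At an unadjusted p under 0.05 the edgeR shares were 13.3% and 44.8%.

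EHMT1 and WHSC1 also belong to the lysine degradation pathway as gene databases define it. Of 30 of its enzymes that do not act on histones, AASS, HADH, PLOD2 and TMLHE hosted 1 circRNA each, with a median log2 fold change of -0.04 by junction reads and 0 of 4 passing 0.01 or an unadjusted p under 0.05 by edgeR or by DESeq2 (adjusted over all tested), beside 0.927% and 13.3% of all tested with edgeR. circ_0002258 of AASS, the enzyme that starts lysine breakdown, had 12 to 15 reads in IMPA against 3 to 13 in IMA. Its non-junction reads had a log2 fold change of -0.35 ± 0.11 (SE), with edgeR adjusted p = 0.0173. Of the 2 circRNAs of this list with complete values, 0 passed 0.01 by edgeR or DESeq2, beside 21.7% and 19.4% of all 690. By each tool 1 had an unadjusted p under 0.05, beside 44.8% of all with edgeR and 40.3% with DESeq2. circ_0012156 of TMLHE and circ_0000070 of PLOD2 had log2 fold changes of 0.53 and 0.34 by junction reads, and circ_0003174 of HADH had 2 to 4 reads in IMPA against 0 to 3 in IMA.

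The deposited list of predicted pairs gives names of miRNAs and circRNAs without scores or sites, and the median circRNA was paired with 9 miRNAs. circ_0005888 was paired with 17, circ_0005878 with 24, circ_0005880 with 16, circ_0005884 with 15 and circ_0005882 with 5. For WHSC1 these numbers were 5 for circ_0003129, 7 for circ_0003133 and 0 for circ_0003127. The listed exons of circ_0005882, circ_0003129 and circ_0003127 lack an end of the ring, with listed lengths of 146, 207 and 163 nt against 302 to 507 nt for the 5 others, so their numbers are not set against those of the others; the part of the missing sequence was not tested. circ_0005878 and circ_0005884 list both ends but not the 137-nt exon that lies within their spans. The numbers of all 8 thus depend on which exons were listed. Over the 8 circRNAs there were 45 distinct miRNAs.

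Several predicted miRNAs were shared by EHMT1 circRNAs that list the same exon. The 4 that list the 181-nt exon were all paired with the 8 let-7 5p miRNAs (let-7a to let-7g and let-7i), miR-98-5p of the same family, miR-130b-5p, miR-320-3p and miR-331-3p. circ_0005882, which uses the same acceptor but has no exon listed there, had none of these pairs, so whether its ring holds the same sites cannot be read from the list. In the series 23 circRNAs (1.73%), of 20 host genes, were paired with let-7 and miR-98-5p, each with all 9 names, and 4 of the 23 (17.4%) came from EHMT1. As these 4 share an exon, they may share 1 predicted site. Both circRNAs that list the 137-nt exon, circ_0005880 and circ_0005888, were also paired with miR-9-5p, miR-505-3p and miR-2483-3p, and miR-671-5p was paired with circ_0005888 alone among the 8. miR-432-5p followed neither exon, as it was paired with circ_0005878, circ_0005880 and circ_0005888 but not with circ_0005884. miR-331-3p was paired with circ_0003133 of WHSC1 too, so it does not follow the 181-nt exon alone; it was also paired with the junction sequence of the 4, and in all with 30 circRNAs of the series (2.26%).

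circ_0003129 was paired with miR-103-5p, miR-28-5p, miR-345-5p, miR-374b-3p and miR-708-5p, of which miR-374b-3p was also paired with its junction sequence. It shared none of these with circ_0005888. miR-103-5p was paired with circ_0003133 and with circ_0005884 of EHMT1 as well, but this miRNA had pairs with 134 circRNAs (10.1%).

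The primers that the study lists under the names of the 2 circRNAs are shown as the only sequences given for them in the sources used here; capitals mark the whole primer, 5′ to 3′, and their places could not be read from a genome here.
circ_0005888 forward: AGCTGCGTTCCCCATTGAG
circ_0005888 reverse: AGGTCCCCATTCTTCGCTTTT
circ_0003129 forward: CCACCCTCACCTTCAGCAAAA
circ_0003129 reverse: GCGTCAGACAGGTGTTTCGT
They are 19 to 21 bases long, with 47.6% to 57.9% G and C. The study reports circ_0003129 as down regulated by qRT-PCR. For circ_0005888 it names no qRT-PCR result.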

How the data were processed

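The authors removed ribosomal RNA, used HISAT2 to map filtered reads, and took circRNAs whose location both find_circ and CIRI2 had called. Software versions are not given in the sources used here, which list versioned reference sequences but do not name the genome build. The deposited counts are junction reads per circRNA and library, not normalized. The CPM values of the authors are counts per 1000000 of the library's circRNA counts, which they named TPM. The annotation table names 10 further samples, which were not used. Gene identifiers of both hosts matched RefSeq's table (ARS1.2), used for names and chromosomes alone.

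Junction counts of the 1294 circRNAs above 0 in at least 5 libraries entered an edgeR test (edgeR 4.0.16, R 4.3.3, TMM, glmQLFit, glmQLFTest, prior count 2, Benjamini-Hochberg, 0.01). Since non-junction reads are given only where a library has a junction read, their test used the 690 circRNAs with values in all libraries, not the filter that was planned. Alternatives used DESeq2 1.42.0, other library sizes, filters and thresholds, a replicate block and omission of each library in turn; the script was tested on simulated data. Python 3.11.15 with numpy 2.4.6 was used for shares and permutations, the latter over group means.

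Named were all circRNAs of EHMT1 and WHSC1 and the 3 of other host genes most correlated with circ_0005888 and with circ_0003129. From each list, up to 4 with the highest mean normalized CPM and any with an adjusted p under 0.05 were named. The circRNAs of WHSC1L1 (paralog of WHSC1), PAX7, PLIN2, MYBPC1, MYPN and FHOD3 were named outside these rules. Members and lists were chosen with earlier results of these data known. Leaving out libraries for the share of a circRNA in its gene and the adjustment of DESeq2's p-values over all circRNAs were added after the data were seen.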

Additional observations from a re-analysis of the deposited data

Results flagged for a closer look

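In 1 of 54 groups of 5 libraries, 1 value stood far from the others, where chance gives about 1 in 20. The share of circ_0003127 in the junction reads of WHSC1 was 4.44% in IMPA4, from 2 reads, and the next lowest IMPA library was at 18.2%. The cause was not tested.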

How the results depend on the processing

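For the counts of calls, and for the log2 fold changes, shares and predicted miRNAs of circ_0005888 and circ_0003129, 165 of the 186 alternative values kept their direction and their side of the threshold or moved by less than the spread. Junction reads gave 6 circRNAs higher and 6 lower in IMA. With a mean count of at least 10 there were 3 and 10, with DESeq2's Wald test 3 and 10 (6 and 4 adjusted over all), with plain sums 2 lower, with summed non-junction reads 1 lower, and at 0.05 13 lower. Lower calls were 1 to 6 with 1 library left out (3 without IMPA1 or IMPA5, 2 without IMA1 or IMA2, 1 without IMA4).

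Non-junction reads gave 80 higher and 70 lower; plain sums gave 48 and 106, summed junction reads 20 and 235, and 0.05 gave 127 and 119. Without a filter this test could not be run.

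With summed non-junction reads the log2 fold change was -0.66 for circ_0005888, -0.59 for circ_0003129 and 0.0295 for circ_0005880 (edgeR adjusted p = 0.977, from 0.753 to 0.979 over its alternatives). With summed junction reads that of circ_0003129 by non-junction reads was -0.42 (edgeR adjusted p = 0.00898, up to 0.500 over its alternatives). These scalings shift the median of all circRNAs. With 1 library left out, circ_0003133 was at -0.036 to 0.56 and the circular share difference of circ_0005878 at -0.765 to 2.08 percentage points.

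Replicate numbers did not pair the libraries (correlations of deviations -0.0523 to 0.0105). With the replicate block 6 circRNAs were higher and 5 lower by junction reads and 93 and 80 by non-junction reads, and circ_0005888 was at -0.88 and circ_0003129 at -0.81. A mean count under 10, as for 4 of the 8 circRNAs, limits what can be detected.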
